A study of Homo sapiens and Mus musculus with 15 samples.

Results

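The 9 genes described here carry the antigen receptor signal of B cells or mark the mature B cell surface. They are BTK, SYK, LYN, BLK, CD79A, CD79B, CR2, FCER2 and MS4A1 in the human line, and the mouse genes of the same names, with Fcer2a for FCER2, in the mouse line. In B cells, the membrane immunoglobulin is paired with CD79A and CD79B, whose cytoplasmic tails are phosphorylated by the Src-family kinases LYN and BLK when antigen binds. SYK docks on the phosphorylated tails and, through the adaptor BLNK, BTK and phospholipase PLCG2 are activated, which leads to calcium release and NF-kB signalling. CR2, the complement receptor CD21, lowers the threshold of this signal as part of a membrane complex that holds CD81. FCER2 is the low-affinity IgE receptor CD23, and MS4A1 is the B cell surface protein CD20. Plasma cells, the normal counterpart of myeloma cells, secrete immunoglobulin and lose much of this surface and signalling apparatus as they differentiate.

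The 9 genes were taken as a named list and found by symbol among the 23346 genes of each human table and the 23329 genes of each mouse table. The list was drawn up with the levels of these genes in these libraries in view. Their levels, differences and counts of calls are therefore given as a description, with no p-value.

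RNA was sequenced in 15 libraries of 2 myeloma lines, with 3 libraries in each of 5 groups. RPMI-8226, called 8226 below, is an established human plasma cell myeloma line, and its groups were carfilzomib-resistant, bortezomib-resistant and naive cells. 5TGM1 is a mouse myeloma line, and its groups were bortezomib-resistant and naive cells. Both drugs inhibit the proteasome. The resistant 8226 cells were maintained in 10 nM carfilzomib or 10 nM bortezomib and the resistant 5TGM1 cells in 20 nM bortezomib, after months of selection in rising doses, and all were off drug for 5 days when RNA was taken. Each resistant group was 1 line selected on 1 drug, so what came with deriving that line cannot be told apart from resistance. The labels do not say whether the libraries of a group came from separate cultures, and the spread between them may be technical.

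The depth of a library, as reads assigned to genes, was 41964250 to 58419576 in carfilzomib-resistant 8226, 31709636 to 34339788 in bortezomib-resistant 8226 and 39032731 to 46874782 in naive 8226. In 5TGM1 it was 49157882 to 57896736 in bortezomib-resistant and 49097494 to 72288680 in naive cells. Levels are CPM, a gene's share of the reads on genes in its library after TMM scaling, and are given as mean ± SD over 3 libraries. A count of 0 in 1 library allows up to 3 counts, which is 0.0521 to 0.0875 CPM in the human libraries and 0.0414 to 0.0612 CPM in the mouse libraries, and covers counting error only. All 8 plasma cell markers averaged at least 1 CPM in carfilzomib-resistant and naive 8226. In bortezomib-resistant 8226, 7 did, and SLAMF7 gave 4 reads. In both 5TGM1 groups 7 did. The 8 markers summed to 1437 to 1499.7 CPM in carfilzomib-resistant, 1622 to 1668 CPM in bortezomib-resistant and 2173 to 2364 CPM in naive 8226. In 5TGM1 they summed to 3079 to 3154 CPM in bortezomib-resistant and 3200 to 3399 CPM in naive cells. Such sums do not show opposite changes of single markers. Against naive 8226, bortezomib-resistant 8226 had more TNFRSF17 (log2 difference 1.81) and less SLAMF7 (-5.28). In bulk RNA, fewer cells that express a gene and less of its RNA per cell cannot be told apart.

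BTK, the Tec-family kinase that activates PLCG2 and the target of ibrutinib, separated the 3 groups of 8226 widely. The carfilzomib-resistant libraries held 250.02, 257 and 264 CPM, the bortezomib-resistant libraries 0.626, 0.759 and 0.466 CPM and the naive libraries 51.8, 58.3 and 51.3 CPM. The carfilzomib-resistant libraries were all above the naive ones, the bortezomib-resistant ones were all far below, and no libraries of different groups overlapped. BTK averaged 257 ± 6.89 CPM in carfilzomib-resistant cells, 0.617 ± 0.147 CPM in bortezomib-resistant cells and 53.8 ± 3.94 CPM in naive cells. Carfilzomib-resistant cells held 4.77-fold more BTK RNA than naive cells (log2 difference 2.25 ± 0.0644 SE), and bortezomib-resistant cells 87.2-fold less (-6.45 ± 0.112). Between the resistant lines the difference was 416-fold (8.70 ± 0.108 on the log2 scale). SEs here and below can understate counting error where a group holds few reads, as with the 66 BTK reads in bortezomib-resistant cells.

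SYK, the kinase that docks on the phosphorylated receptor tails, was almost unmeasured in bortezomib-resistant 8226. It had 219, 211 and 228 CPM in the carfilzomib-resistant libraries, 0.109, 0.0292 and 0.0274 CPM in the bortezomib-resistant libraries and 155, 155 and 149.6 CPM in the naive libraries. The bortezomib-resistant values rest on 6 reads in all, against 33375 in the carfilzomib-resistant and 18555 in the naive libraries. The level in bortezomib-resistant cells was 2775-fold lower than in naive cells (log2 difference -11.35). Without bortezomib-resistant replicate 1, which held 4 of the 6 reads, the log2 difference was -12.26. Carfilzomib-resistant cells were 1.43-fold above naive cells (0.52 ± 0.0556), and all 3 of their libraries were above all naive ones. The resistant lines differed by 11.87 on the log2 scale, or 12.78 without bortezomib-resistant replicate 1.

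The stretches of 250 bases before the annotated starts of BTK and SYK are printed because both genes were high in carfilzomib-resistant and naive cells and near 0 in bortezomib-resistant cells, and that of CR2 because it was low in both resistant lines. The sequences are from RefSeq on GRCh38.p14, written 5′ to 3′ along the strand of the gene. Capitals mark matches to GAGGAAGT, the core bound by PU.1 (the product of SPI1) and other Ets factors, on either strand. SYK has 3 annotated starts, and the windows of the other two, which held no match, are not printed.
BTK, chrX:101390797-101391046, minus strand: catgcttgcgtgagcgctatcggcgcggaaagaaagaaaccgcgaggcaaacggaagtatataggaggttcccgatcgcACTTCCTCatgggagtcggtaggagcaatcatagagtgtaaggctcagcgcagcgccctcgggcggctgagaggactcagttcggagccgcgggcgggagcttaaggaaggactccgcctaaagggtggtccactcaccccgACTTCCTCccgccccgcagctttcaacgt
BTK, a second annotated start, chrX:101386192-101386441, minus strand: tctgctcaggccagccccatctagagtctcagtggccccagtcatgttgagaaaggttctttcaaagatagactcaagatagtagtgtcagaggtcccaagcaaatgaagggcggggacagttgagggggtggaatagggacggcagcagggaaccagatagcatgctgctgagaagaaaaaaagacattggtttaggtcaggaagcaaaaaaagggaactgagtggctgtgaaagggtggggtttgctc
SYK, chr9:90801569-90801818, plus strand: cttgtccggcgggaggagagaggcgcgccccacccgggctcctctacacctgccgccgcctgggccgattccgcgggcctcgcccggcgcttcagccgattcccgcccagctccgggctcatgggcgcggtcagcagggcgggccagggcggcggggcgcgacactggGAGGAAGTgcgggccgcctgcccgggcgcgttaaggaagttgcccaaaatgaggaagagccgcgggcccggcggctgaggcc
CR2, chr1:207454078-207454327, plus strand: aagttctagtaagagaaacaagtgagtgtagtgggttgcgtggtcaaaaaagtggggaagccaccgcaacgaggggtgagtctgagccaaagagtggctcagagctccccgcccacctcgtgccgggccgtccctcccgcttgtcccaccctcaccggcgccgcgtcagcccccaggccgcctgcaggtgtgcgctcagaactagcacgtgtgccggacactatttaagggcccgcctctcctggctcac

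The BTK stretch at the outer start held 2 matches, at bases -171 to -164 and -29 to -22 from the start and both on the opposite strand, and the printed SYK stretch held 1, at -82 to -75 on the strand of the gene. The other windows of BTK and SYK and all windows of CR2, CD79A and FCER2 held none. Among 35116 RefSeq promoter windows of the same length, 2.17% held this motif. Searches of the same windows for the octamer ATGCAAAT, bound by Oct factors, and for a palindromic form of the EBF site, on both strands found no match in the BTK, SYK, CR2, CD79A or FCER2 windows, against 1.63% and 1.06% of all windows. Promoter windows were matched for 5 of the 9 genes. SPI1 itself had 37.8 ± 2.999 CPM in carfilzomib-resistant, 14.0 ± 0.782 CPM in bortezomib-resistant and 31.4 ± 2.56 CPM in naive 8226. ETS1, another Ets factor, was highest in bortezomib-resistant cells. It had 5.99 ± 0.297 CPM in carfilzomib-resistant, 195 ± 9.25 CPM in bortezomib-resistant and 8.61 ± 0.287 CPM in naive 8226. A match of letters is a description of the sequence and says nothing of binding.

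LYN, a Src-family kinase that both starts the receptor signal and, by phosphorylating inhibitory receptors, restrains it, followed the order of BTK. Its level was 69.4, 66.8 and 70.6 CPM in the carfilzomib-resistant libraries, 0.0272, 0 and 0 CPM in the bortezomib-resistant libraries and 15.2, 15.5 and 14.0 CPM in the naive libraries. The bortezomib-resistant libraries held 1 read in all, in replicate 1. The naive level was 1608 times the bortezomib-resistant level, with a 95% counting interval of 288 to 63564. Carfilzomib-resistant cells held 4.62-fold more LYN RNA than naive cells (log2 difference 2.21 ± 0.0691), with no overlap between the libraries. The fitted log2 difference between bortezomib-resistant and naive cells was -10.25, and -12.32 without bortezomib-resistant replicate 1. Between the resistant lines it was 12.46, and 14.53 without the same library.

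BLK, a Src-family kinase expressed mainly in the B lineage, was the best measured of the 9 genes in bortezomib-resistant 8226, with 2323 reads. It had 73.0, 77.5 and 75.6 CPM in the carfilzomib-resistant libraries, 21.7, 21.0 and 22.2 CPM in the bortezomib-resistant libraries and 109, 102 and 112 CPM in the naive libraries. Here naive cells were highest, and both resistant lines were below them without overlap. The level in bortezomib-resistant cells was 5.00-fold lower than in naive cells (-2.32 ± 0.0582), and in carfilzomib-resistant cells 1.43-fold lower (-0.52 ± 0.0533). Carfilzomib-resistant cells were 3.49-fold above bortezomib-resistant cells (1.80 ± 0.0578).

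CD79A and CD79B, the signal chains of the antigen receptor, were low in every 8226 group. CD79A averaged 0.759 ± 0.0756 CPM in carfilzomib-resistant, 0.417 ± 0.0908 CPM in bortezomib-resistant and 3.22 ± 0.0737 CPM in naive cells, from 114, 45 and 390 reads. The naive libraries, at 3.16, 3.30 and 3.20 CPM, stood above all 6 resistant ones, which ran from 0.350 to 0.845 CPM. CD79A was 7.72-fold lower in bortezomib-resistant cells than in naive cells (log2 difference -2.94 ± 0.172) and 4.24-fold lower in carfilzomib-resistant cells (-2.09 ± 0.142). CD79B gave 5, 0 and 1 reads in the carfilzomib-resistant libraries, 0, 1 and 0 in the bortezomib-resistant libraries and 12, 18 and 17 in the naive libraries. Its level was thus near the counting limit in both resistant lines, and the naive level of 0.395 ± 0.109 CPM was 41.7 times the bortezomib-resistant one (95% counting interval 7.13 to 1682). The fitted log2 difference between these groups was -5.00, and -7.08 without bortezomib-resistant replicate 2, which held the read. Against naive cells, CD79B in carfilzomib-resistant cells was 10.5-fold lower (-3.20 ± 0.577), and the log2 difference was -4.89 without carfilzomib-resistant replicate 1, which held 5 of the 6 reads.

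CR2 and FCER2, the coreceptor and the low-affinity IgE receptor, were well measured in naive 8226 and low in both resistant lines. CR2 had 0.988, 0.797 and 0.991 CPM in the carfilzomib-resistant libraries, 0, 0.0292 and 0 CPM in the bortezomib-resistant libraries and 38.3, 37.7 and 36.8 CPM in the naive libraries. The carfilzomib-resistant level was 40.7-fold below the naive level (log2 difference -5.33 ± 0.104). The bortezomib-resistant libraries held 1 CR2 read in all, in replicate 2. The naive level was 4049 times theirs (95% counting interval 726 to 159979), and the carfilzomib-resistant level was 101 times theirs (17.8 to 4005). The fitted log2 difference between bortezomib-resistant and naive cells was -11.58, and -13.67 without that replicate. Between the resistant lines it was 6.26, and 8.34 without it.

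FCER2 had 1, 3 and 3 reads in the carfilzomib-resistant libraries and 5, 1 and 0 reads in the bortezomib-resistant libraries, and 37.8, 39.1 and 37.6 CPM in the naive libraries. The resistant lines overlapped each other and both stood far below naive cells. Its level was 798-fold lower in carfilzomib-resistant cells than in naive cells (log2 difference -9.60). It was 693-fold lower in bortezomib-resistant cells (-9.34, or -11.13 without bortezomib-resistant replicate 1). Unlike FCER2, CR2 kept a level in carfilzomib-resistant cells that lay above all bortezomib-resistant libraries.

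MS4A1, the target of rituximab, was low in all 3 groups. It gave 1, 2 and 2 reads in the carfilzomib-resistant libraries, 5, 4 and 1 reads in the bortezomib-resistant libraries and 75, 64 and 50 reads in the naive libraries, where its level was 1.55 ± 0.172 CPM. Its level was 45.6-fold lower in carfilzomib-resistant cells than in naive cells (log2 difference -5.44) and 16.6-fold lower in bortezomib-resistant cells (-4.02). The resistant lines overlapped.

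**Figure D1:**
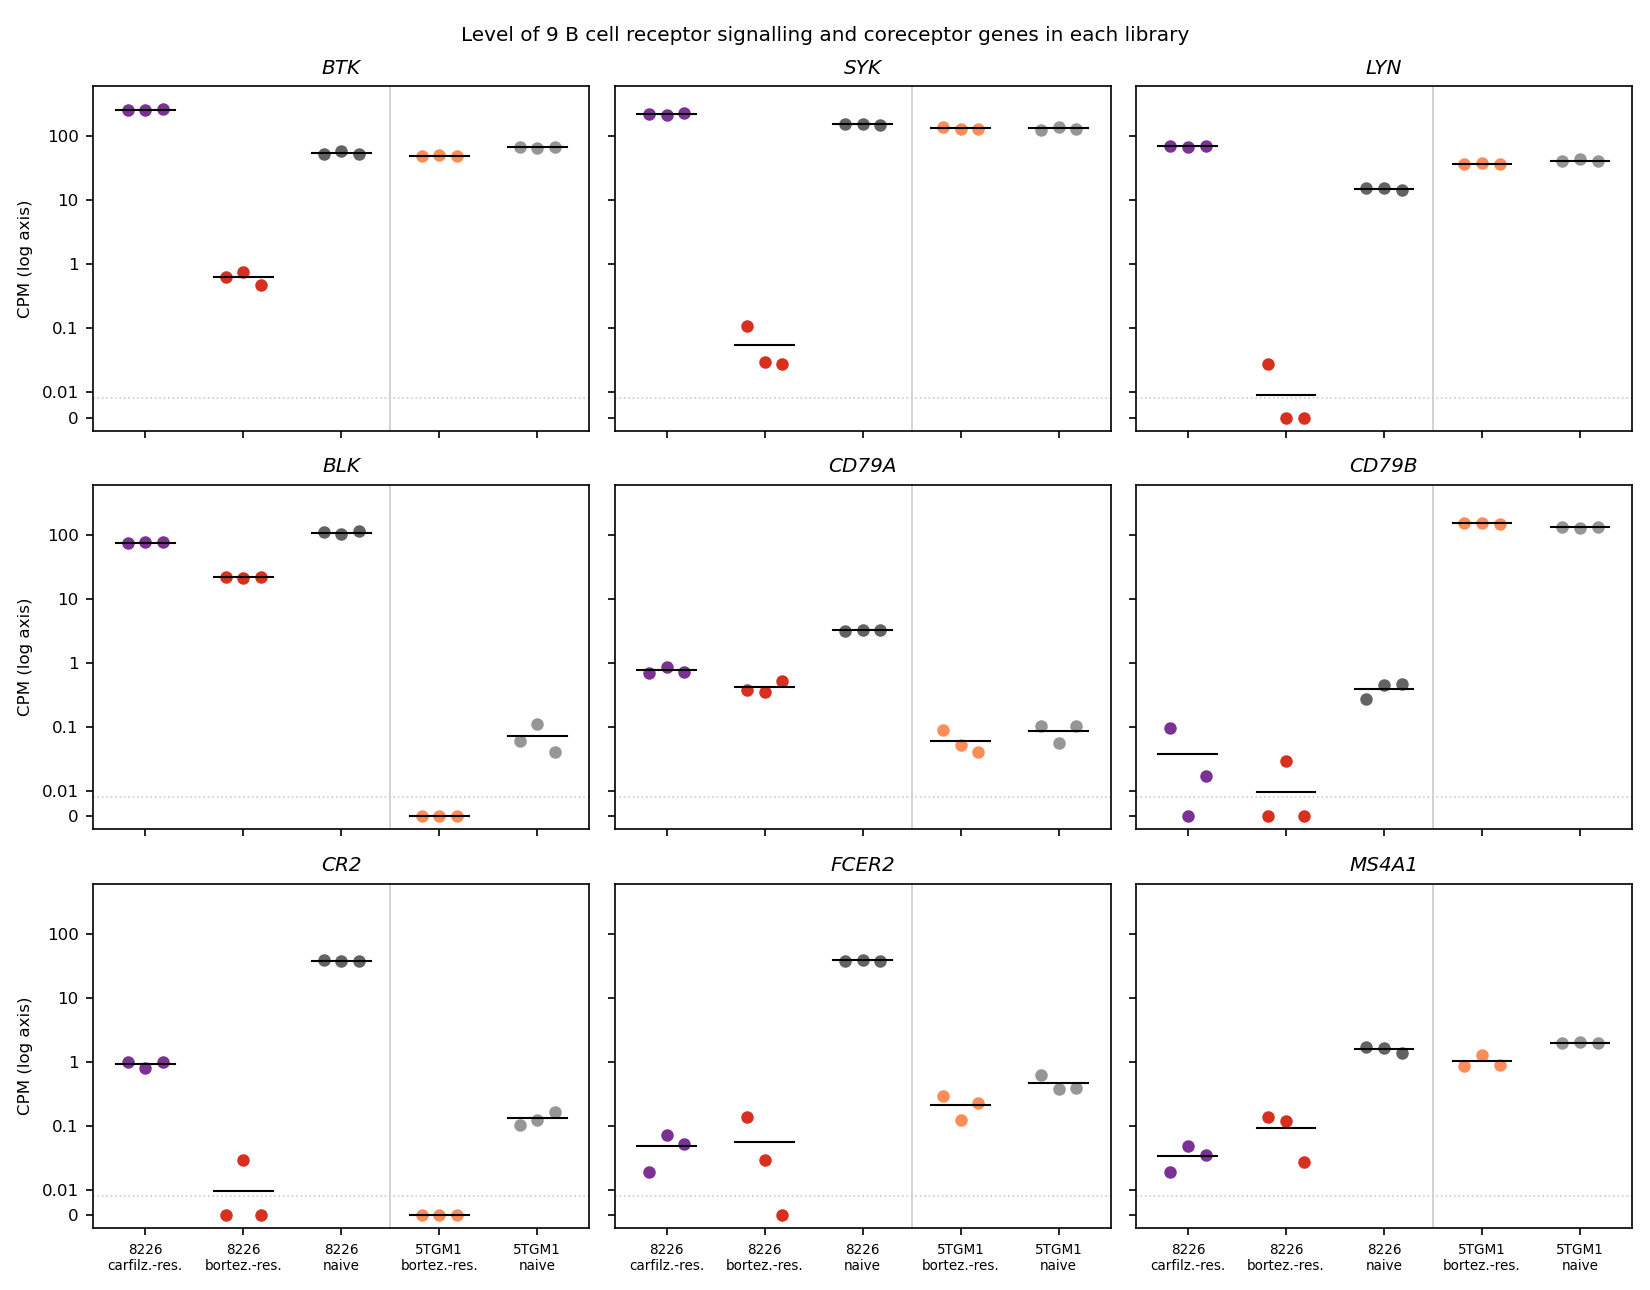
CPM on a log axis (points below the dotted line are at 0) in each of the 15 libraries for the 9 genes, with 5TGM1 points showing the mouse gene of the same name. Points are libraries and bars are group means of 3. BTK, SYK and LYN sit high in carfilzomib-resistant and naive 8226 and near 0 in bortezomib-resistant 8226, while CR2, FCER2, CD79A, CD79B and MS4A1 are low in both resistant 8226 lines and BLK is intermediate.

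The 9 genes therefore showed a pair of patterns in 8226. BTK, SYK and LYN were higher in carfilzomib-resistant and lower in bortezomib-resistant cells than in naive cells. BLK, CD79A, CD79B, CR2, FCER2 and MS4A1 were lower than naive in both lines. All 9 passed the filter on low counts in 8226. A gene counts as called where its adjusted p, from the quasi-likelihood test of edgeR after Benjamini-Hochberg adjustment, was below 0.05. In bortezomib-resistant against naive cells, 0 of 9 were called higher and 9 lower, beside 38.2% and 41.6% of 13910 tested genes (79.8% in either direction), and 9 did not overlap between the groups, beside 79.7% of tested genes. In carfilzomib-resistant against naive cells, 3 were called higher and 6 lower, beside 35% and 36.7% of tested genes (71.7% in either direction), and 9 did not overlap, beside 73.1%. In carfilzomib-resistant against bortezomib-resistant cells, 6 were called higher and 0 lower, beside 39.9% and 37% (76.9% in either direction), and 6 did not overlap, beside 79.8%. Without bortezomib-resistant replicate 3, MS4A1 was also called there, as lower. FCER2, CD79B and MS4A1 were the 3 not called between the resistant lines with all libraries. Since most genes differed between these lines and the list was chosen on these values, nothing is read from the counts. Scaling by library size alone put the share of called genes that were higher in bortezomib-resistant than in naive 8226 at 58.7%, against 47.9% with TMM. Both comparisons with naive cells use the same 3 naive libraries.

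Levels can be compared between genes only per length of transcript. Per kilobase of annotated exon (GENCODE 29 on GRCh38, which is not the annotation behind the counts), BTK was highest in carfilzomib-resistant 8226 at 83.0 ± 2.23 CPM per kb, followed by SYK at 42.4 ± 1.66, BLK at 26.2 ± 0.789 and LYN at 11.7 ± 0.330, and the other genes were below 1. In bortezomib-resistant cells BLK, at 7.50 ± 0.212 CPM per kb, was above all others, with CD79A next at 0.332 ± 0.0722 and then BTK at 0.199 ± 0.0474. In naive cells the order was BLK at 37.5 ± 1.79, SYK at 29.6 ± 0.580, FCER2 at 22.2 ± 0.468, BTK at 17.4 ± 1.27 and CR2 at 8.87 ± 0.172 CPM per kb. CD79A at 2.56 ± 0.0586 and LYN at 2.53 ± 0.133 came next in naive cells and did not differ beyond their spread, and MS4A1 at 0.441 ± 0.0490 and CD79B at 0.310 ± 0.0855 were lowest. All 4 kinases stood above CD79A and CD79B per length in carfilzomib-resistant cells, and in bortezomib-resistant cells BLK alone did.

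In 5TGM1, Btk, Syk, Lyn and Cd79b differed by at most 1.34-fold between bortezomib-resistant and naive cells, and Fcer2a, Ms4a1, Cr2 and Blk, all low, were lower in the bortezomib-resistant cells. Btk had 49.2, 49.7 and 48.6 CPM in the bortezomib-resistant libraries and 66.7, 65.4 and 66.3 CPM in the naive libraries, a difference of 1.34-fold (log2 difference -0.43 ± 0.0400) with no overlap. Syk overlapped between the groups, at 136, 128 and 129 CPM in bortezomib-resistant and 124, 138 and 129 CPM in naive libraries (log2 difference 0.01 ± 0.0465). Lyn was slightly lower in bortezomib-resistant cells, at 36.6 ± 0.773 CPM against 41.2 ± 1.51 CPM in naive cells (-0.17 ± 0.0450). The 8226 differences of BTK and LYN under the same drug had the same sign as those of Btk and Lyn and were far larger.

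The signal chains differed from each other in 5TGM1. Cd79b was well measured, at 154, 152 and 146 CPM in bortezomib-resistant and 133, 125 and 131 CPM in naive libraries, and was 1.16-fold higher in the bortezomib-resistant cells (log2 difference 0.22 ± 0.0413) without overlap. Cd79a gave 10 reads in the bortezomib-resistant and 14 reads in the naive libraries, against 11 and 6 on the opposite strand, and was not tested. The line thus held RNA of 1 of the 2 chains of the receptor heterodimer at over 100 CPM in all 6 libraries and few reads of the other on either strand.

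The surface genes were low in 5TGM1. Ms4a1 had 1.01 ± 0.239 CPM in bortezomib-resistant and 1.99 ± 0.0591 CPM in naive cells (log2 difference -0.98 ± 0.150), and Fcer2a had 0.211 ± 0.0841 CPM in bortezomib-resistant and 0.457 ± 0.133 CPM in naive cells (-1.08 ± 0.321). Cr2 had 0 reads in the bortezomib-resistant and 22 in the naive libraries, at least 6.98-fold lower against the limit of 3 counts over the group. On the opposite strand Cr2 had 3 reads in bortezomib-resistant and 8 in naive libraries. Fcer2a had 12 and 10 reads on the opposite strand, against 34 and 76 on its own strand. Blk had 0 reads in the bortezomib-resistant and 13 in the naive libraries, at least 4.13-fold lower. Cd79a, Blk and Cr2 did not pass the filter on low counts. Of the 6 genes tested, 1 (Cd79b) was called higher and 4 (Btk, Lyn, Fcer2a and Ms4a1) lower, beside 34% and 33.2% of 11974 tested mouse genes (67.2% in either direction), and 5 did not overlap between the groups, beside 69.6%.

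Genes whose level followed BTK most closely over the 9 libraries of 8226 were ranked by the root mean square difference of centred log2 CPM. The nearest were C6orf115 (0.261), OLFML2B (0.348), LYN (0.358), EGLN3 (0.421) and SERPINE2 (0.440). C6orf115, for example, averaged 80.6 CPM in carfilzomib-resistant and 23.4 CPM in naive cells and had 0 reads in bortezomib-resistant cells. For SYK they were HMGN5 (0.177), PHGDH (0.320), GPR126 (0.458), PGRMC1 (0.471) and HCLS1 (0.514). HMGN5 averaged 240.3 CPM in carfilzomib-resistant, 0.0551 CPM in bortezomib-resistant and 185 CPM in naive cells. CD79B was too near the counting limit for such a ranking. The lists describe likeness over 3 groups of 1 line and nothing else.

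The Src, Syk and Tec relatives of the 4 kinases moved in different directions in 8226. TEC, the relative of BTK, ran from 4.88 to 5.74 CPM in carfilzomib-resistant, 2.79 to 3.09 CPM in bortezomib-resistant and 3.63 to 4.34 CPM in naive libraries. SRC ran from 0.122 to 0.266 CPM in carfilzomib-resistant, 0.163 to 0.438 CPM in bortezomib-resistant and 2.85 to 3.25 CPM in naive libraries. FYN, a Src-family kinase of lymphocytes, fell in both resistant lines. It had 1.39 ± 0.0926 CPM in carfilzomib-resistant cells and 31.6 ± 0.662 CPM in naive cells (log2 difference -4.50 ± 0.106, adjusted p = 7.9e-15, from the same edgeR test as all adjusted p-values here). In bortezomib-resistant cells FYN gave 2 reads, and the naive level was 1701 times theirs (95% counting interval 471 to 14052, adjusted p = 9.0e-16). Both reads were in replicate 1, without which the fitted log2 difference was -13.41, against -10.52 with it. YES1, a broadly expressed Src-family kinase, rose in both lines, to 44.5 ± 1.72 CPM in carfilzomib-resistant and 80.8 ± 5.56 CPM in bortezomib-resistant cells, against 17.5 ± 1.14 CPM in naive cells (adjusted p = 9.6e-11 and 1.6e-13).

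LCK, the Src-family kinase of T cells, rose in bortezomib-resistant 8226 only to a low level, 3.07 ± 0.475 CPM against 0.0841 ± 0.0407 CPM in naive cells (log2 difference 5.17 ± 0.322, adjusted p = 6.3e-10). Its level in carfilzomib-resistant cells, 0.0640 ± 0.0600 CPM, overlapped that of naive cells (adjusted p = 0.695). ZAP70, the SYK relative of T cells, fell to 0.302 ± 0.0674 CPM in carfilzomib-resistant and 1.00 ± 0.0836 CPM in bortezomib-resistant cells, against 3.81 ± 0.445 CPM in naive cells (adjusted p = 5.4e-11 and 1.3e-08). Of 8 tested kinase relatives, 2 were called higher and 4 lower in carfilzomib-resistant than in naive cells, and 2 higher and 5 lower in bortezomib-resistant cells. Over all tested genes these shares were 35% higher and 36.7% lower in carfilzomib-resistant and 38.2% and 41.6% in bortezomib-resistant cells. In 5TGM1, Fyn had 876 ± 9.94 CPM in bortezomib-resistant and 882 ± 20.0 CPM in naive cells (adjusted p = 0.825).

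**Figure D2:**
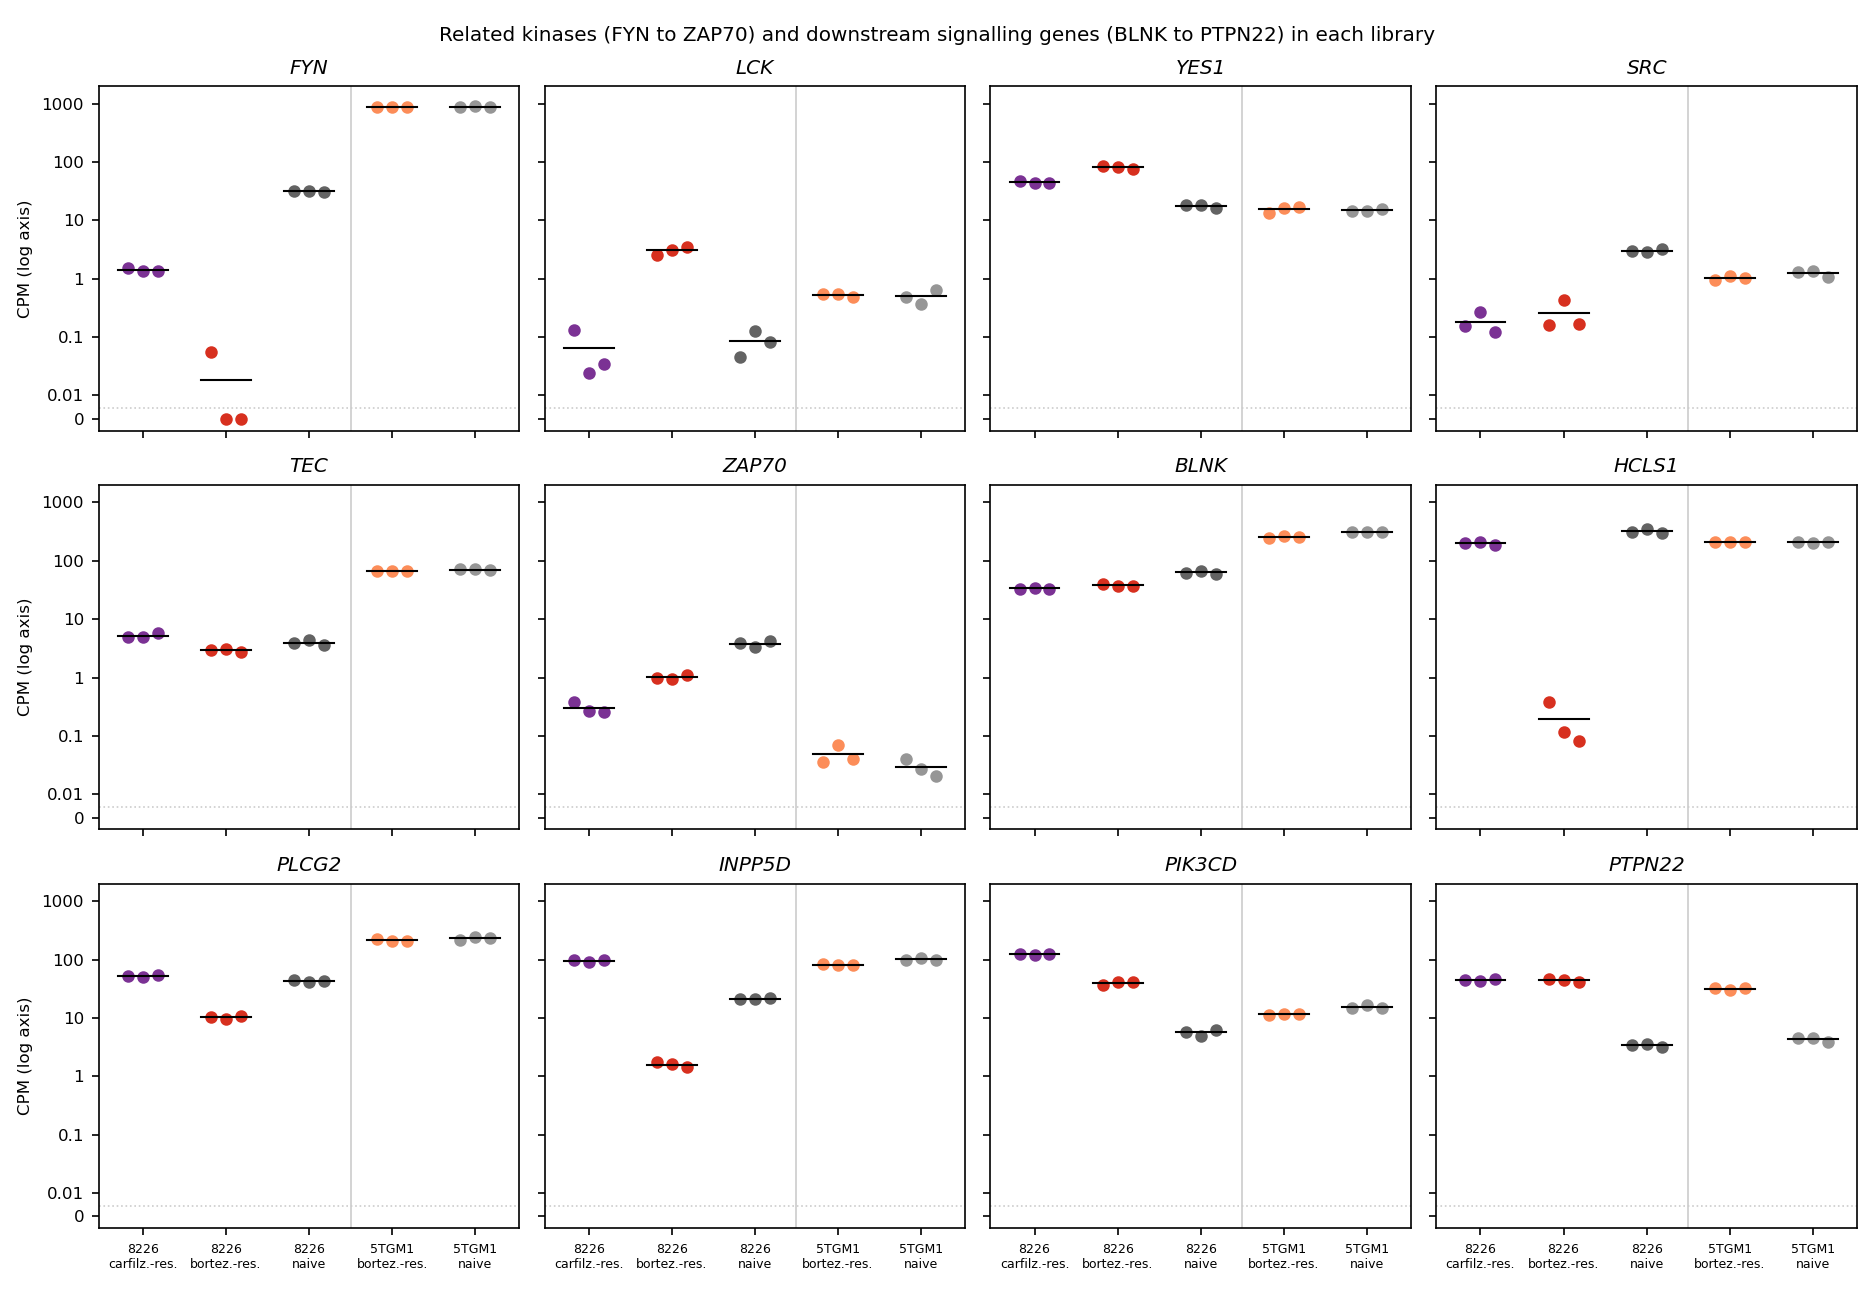
CPM on a log axis (points below the dotted line are at 0) in each library for 6 kinases related to the members and 6 genes further along the pathway, with 5TGM1 points showing the mouse gene of the same name. Points are libraries and bars are group means of 3. FYN and HCLS1 are near 0 in bortezomib-resistant 8226, and of the 8226 groups the carfilzomib-resistant one is highest for INPP5D and PIK3CD.

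The wider pathway was described with a list of 78 other genes, drawn up with earlier results of these data known. In bortezomib-resistant against naive 8226, 28 of 71 tested genes were called higher and 38 lower, beside 38.2% and 41.6% of all tested genes, with a median log2 difference of -0.38 beside -0.03 over all tested genes. In carfilzomib-resistant against naive 8226, 31 were called higher and 28 lower, beside 35% and 36.7% (median 0.08, all genes -0.0036). In carfilzomib-resistant against bortezomib-resistant 8226, 34 were called higher and 25 lower, beside 39.9% and 37% (median 0.27, all genes 0.02). In bortezomib-resistant against naive 5TGM1, 12 of 63 tested genes were called higher and 35 lower, beside 34% and 33.2% (median -0.23, all genes 0.00). In bortezomib-resistant against naive 8226, 8 of 14 phospholipase, PI3K and calcium genes were called higher and 5 lower, and 7 of 13 phosphatases and negative regulators higher and 6 lower.

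CD81 and IFITM1, partners of CR2, were lower than in naive cells in both resistant lines of 8226. Other coreceptors and positive receptors differed in direction. Of 6 tested coreceptors and positive receptors, 2 were called higher and 3 lower in carfilzomib-resistant than in naive 8226, and 1 higher and 5 lower in bortezomib-resistant cells. The shares over all tested genes were 35% and 36.7% in carfilzomib-resistant and 38.2% and 41.6% in bortezomib-resistant cells. CD81, the tetraspanin of the coreceptor complex, fell to 0.122 ± 0.0465 CPM in carfilzomib-resistant cells and to 0.444 ± 0.161 CPM in bortezomib-resistant cells, against 83.6 ± 9.62 CPM in naive cells (adjusted p = 7.7e-16 and 9.7e-16). IFITM1, a small membrane protein found in that complex, fell to 0.759 ± 0.148 CPM in carfilzomib-resistant and 2.62 ± 0.436 CPM in bortezomib-resistant cells, against 20.0 ± 0.877 CPM in naive cells (adjusted p = 5.1e-14 and 1.6e-12). CD22, an inhibitory receptor of B cells, had 0 reads in carfilzomib-resistant and 3 in bortezomib-resistant cells, against 1.27 ± 0.0856 CPM in naive cells. Relative to naive cells it was at least 64.3-fold lower in carfilzomib-resistant cells (adjusted p = 2.3e-09), and the naive level was 45.6 times the bortezomib-resistant level (95% counting interval 15.3 to 223, adjusted p = 1.1e-08). CD180, a Toll-like receptor relative on B cells, was at 14.5 ± 1.08 CPM in carfilzomib-resistant and 0.0473 ± 0.0442 CPM in bortezomib-resistant cells, a log2 difference of 8.19 (adjusted p = 4.7e-14), or 8.90 without bortezomib-resistant replicate 2. Against naive cells, the fitted log2 difference of CD180 in bortezomib-resistant cells was -8.40.

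The adaptors and enzymes downstream of SYK and BTK differed in direction in 8226. Of 12 tested adaptors, 5 were called higher and 7 lower in carfilzomib-resistant than in naive cells, and 2 higher and 9 lower in bortezomib-resistant cells. All tested genes gave 35% and 36.7% in carfilzomib-resistant and 38.2% and 41.6% in bortezomib-resistant cells. BLNK, the adaptor that joins SYK to BTK and PLCG2, fell in both lines, to 33.7 ± 0.748 CPM in carfilzomib-resistant and 38.0 ± 1.74 CPM in bortezomib-resistant cells, against 63.7 ± 4.23 CPM in naive cells (adjusted p = 2.4e-09 and 2.1e-08). PLCG2, the phospholipase, rose to 52.9 ± 1.76 CPM in carfilzomib-resistant cells and fell to 10.3 ± 0.582 CPM in bortezomib-resistant cells, against 42.9 ± 1.11 CPM in naive cells (adjusted p = 2.2e-04 and 1.5e-13). HCLS1, a substrate of SYK and LYN that binds actin, fell 1669.6-fold to 0.193 ± 0.164 CPM in bortezomib-resistant cells, against 323 ± 27.5 CPM in naive cells (-10.67, adjusted p = 5.3e-17). The log2 difference was -11.63 without bortezomib-resistant replicate 1. In carfilzomib-resistant cells HCLS1 was at 199.6 ± 8.95 CPM, with all libraries below the naive ones.

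Other pathway genes rose in bortezomib-resistant 8226, the line in which BTK, SYK, LYN and BLK were lowest. Of 13 tested inhibitory receptors, 4 were called higher and 7 lower in carfilzomib-resistant than in naive 8226, and 3 higher and 8 lower in bortezomib-resistant cells. Beside them, all tested genes gave 35% and 36.7% in carfilzomib-resistant and 38.2% and 41.6% in bortezomib-resistant cells. RASGRP3, a Ras activator, rose to 24.5 ± 0.126 CPM in bortezomib-resistant cells, against 0.209 ± 0.0481 CPM in naive cells (118-fold, adjusted p = 5.8e-16). LILRB4, an inhibitory receptor, rose to 129 ± 5.81 CPM in bortezomib-resistant cells, against 6.47 ± 0.488 CPM in naive cells (19.9-fold, adjusted p = 1.4e-16). PIK3CD, the PI3K catalytic subunit of leukocytes, rose in both lines, to 123 ± 4.35 CPM in carfilzomib-resistant and 40.2 ± 2.41 CPM in bortezomib-resistant cells, against 5.70 ± 0.715 CPM in naive cells (adjusted p = 9.3e-16 and 7.5e-14). PTPN22, a phosphatase that acts on Src-family and SYK-family kinases, rose to 44.5 ± 2.03 CPM in carfilzomib-resistant and 44.6 ± 2.65 CPM in bortezomib-resistant cells, against 3.41 ± 0.221 CPM in naive cells (adjusted p = 3.7e-15 and 2.2e-15). In 5TGM1, Ptpn22 also rose, to 31.7 ± 1.33 CPM in bortezomib-resistant cells, against 4.32 ± 0.398 CPM in naive cells (7.34-fold, adjusted p = 1.9e-15).

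In carfilzomib-resistant 8226 the largest rises of the list beside PIK3CD and PTPN22 were those of VAV3 and FCRLA. VAV3, a guanine nucleotide exchange factor, rose to 10.6 ± 0.916 CPM, against 0.501 ± 0.107 CPM in naive cells (21.1-fold, adjusted p = 3.8e-12). FCRLA, an Fc receptor relative found inside B cells, rose to 85.7 ± 0.892 CPM, against 7.04 ± 0.258 CPM in naive cells (12.2-fold, adjusted p = 1.7e-15). Of 13 tested phosphatases and negative regulators, 6 were called higher and 3 lower in carfilzomib-resistant than in naive cells, beside 35% and 36.7% of all tested genes. INPP5D, the phosphatase SHIP1, rose to 95.3 ± 4.82 CPM in carfilzomib-resistant cells and fell to 1.60 ± 0.161 CPM in bortezomib-resistant cells, against 21.3 ± 0.626 CPM in naive cells (adjusted p = 8.9e-14 and 7.6e-15). PTPN6, the phosphatase SHP-1, fell in both, to 4.62 ± 0.176 CPM in carfilzomib-resistant and 6.24 ± 0.0866 CPM in bortezomib-resistant cells, against 31.2 ± 1.73 CPM in naive cells (adjusted p = 4.3e-14 and 1.9e-13). PTPRC, the phosphatase CD45 that keeps Src-family kinases active, fell to 0.183 ± 0.0548 CPM in carfilzomib-resistant cells, against 8.29 ± 0.750 CPM in naive cells (45.4-fold, adjusted p = 3.7e-13), and gave 2 reads in bortezomib-resistant cells.

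In 5TGM1 more of the tested pathway genes fell than rose. Of 12 tested adaptors 1 was called higher and 7 lower in bortezomib-resistant than in naive cells, of 13 phospholipase, PI3K and calcium genes 2 higher and 9 lower, and of 9 inhibitory receptors 4 higher and 4 lower. Among all tested mouse genes 34% were called higher and 33.2% lower. Cd300a, an inhibitory receptor, fell to 5 reads in bortezomib-resistant cells, against 4.63 ± 0.437 CPM in naive cells (log2 difference -7.13, or -8.61 without bortezomib-resistant replicate 2, adjusted p = 1.1e-12). Bank1, an adaptor of LYN and phospholipase C, fell 10.8-fold to 0.799 ± 0.183 CPM, against 8.65 ± 0.728 CPM in naive cells (adjusted p = 5.8e-13), and Cd180 fell 6.30-fold to 2.01 ± 0.171 CPM, against 12.6 ± 0.399 CPM in naive cells (adjusted p = 6.1e-14). Fcgr2b, the inhibitory IgG receptor, rose to 128 ± 1.44 CPM, against 76.8 ± 1.37 CPM in naive cells (adjusted p = 6.8e-11). Blnk fell to 255 ± 7.31 CPM, against 313 ± 0.492 CPM in naive cells (-0.29 ± 0.0387, adjusted p = 4.7e-06). Plcg2 was at 215 ± 8.82 CPM in bortezomib-resistant and 233 ± 11.01 CPM in naive cells (-0.11 ± 0.0452, adjusted p = 0.0371), a call lost when either of naive replicates 2 and 3 or bortezomib-resistant replicates 2 and 3 was left out (adjusted p of 0.109 to 0.189).

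**Figure D3:**
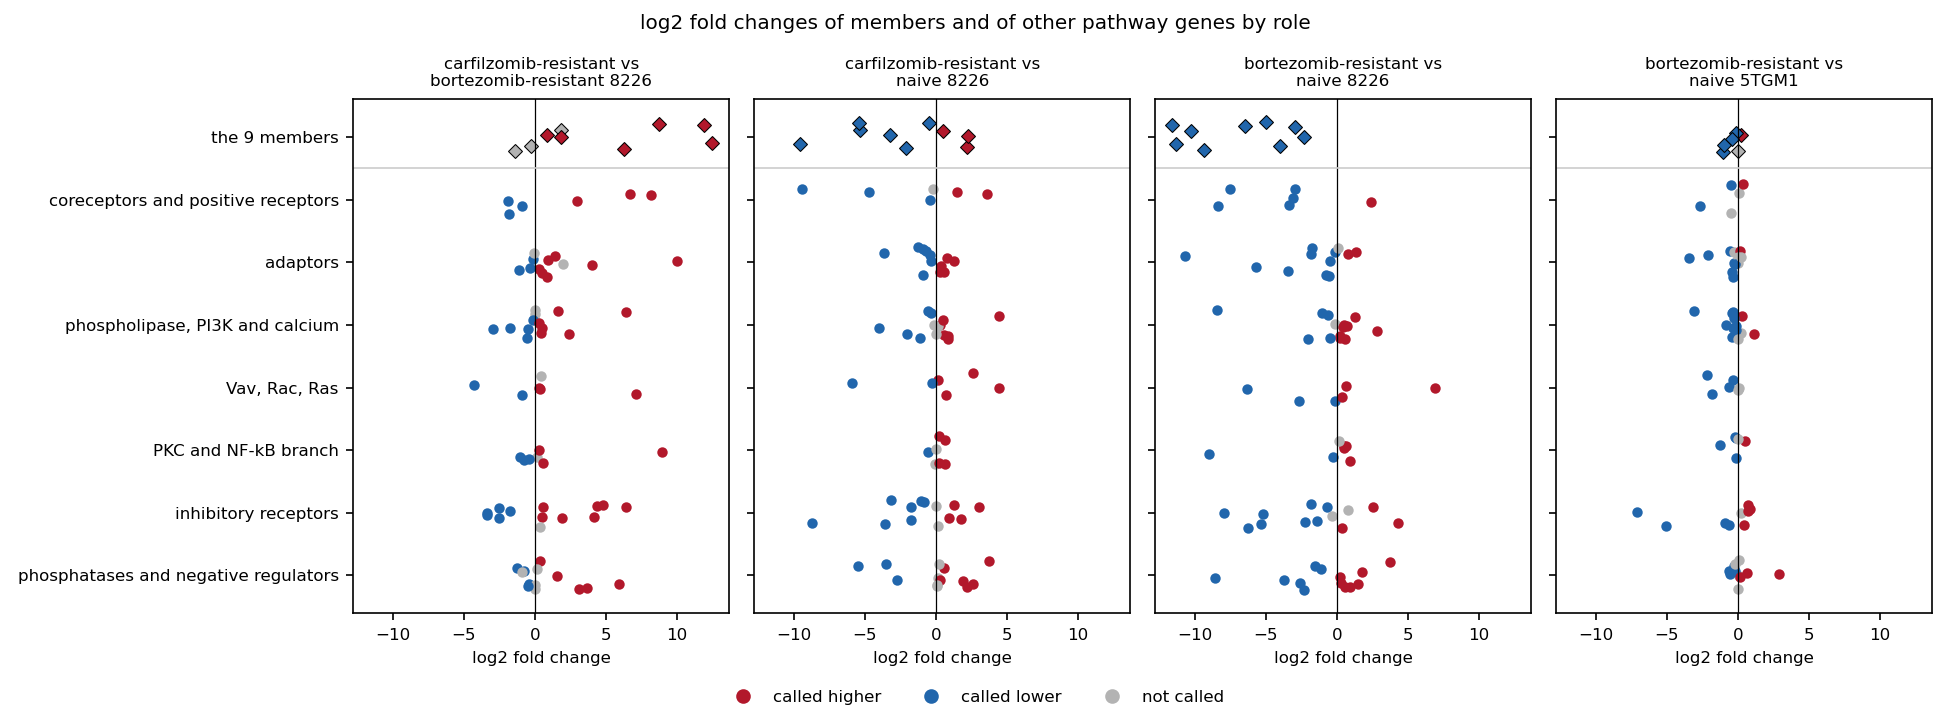
Log2 differences (x axis) of the tested members (diamonds, top row) and of the other pathway genes by role (circles) in the 4 comparisons, coloured by edgeR call. All 9 members lie left of 0 in bortezomib-resistant against naive 8226, they lie on both sides in carfilzomib-resistant against naive 8226, and in 5TGM1 the 6 tested ones lie between -1.08 and 0.22. Values of genes with 3 or fewer reads in a group are fitted ones that depend on the prior count.

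Transcription factors of the B and plasma cell programmes were described beside the members. POU2AF1, the coactivator of Oct factors in B cells, fell in both lines of 8226, to 94.4 ± 3.46 CPM in carfilzomib-resistant and 86.1 ± 4.99 CPM in bortezomib-resistant cells, against 186 ± 6.24 CPM in naive cells (adjusted p = 3.2e-10 and 4.7e-11). SPI1, at the levels given above, rose in carfilzomib-resistant and fell in bortezomib-resistant cells against naive cells (adjusted p = 0.0055 and 2.5e-09). ETS1, the founding Ets factor, rose to 195 ± 9.25 CPM in bortezomib-resistant cells, against 8.61 ± 0.287 CPM in naive cells (22.6-fold, adjusted p = 3.1e-17). PAX5, the factor that sustains B cell identity, averaged 0.0865 ± 0.0103 CPM in carfilzomib-resistant and 0.218 ± 0.0694 CPM in naive 8226, gave 1 read in bortezomib-resistant cells and was not tested. In 5TGM1, Pou2af1 rose to 2044 ± 11.1 CPM in bortezomib-resistant cells, against 892 ± 7.22 CPM in naive cells (adjusted p = 1.1e-13).

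Markers of other cell types were summed in the same libraries. The 8 T cell and NK cell markers summed to 7.43 to 7.94 CPM in carfilzomib-resistant, 9.55 to 10.2 CPM in bortezomib-resistant and 5.88 to 6.74 CPM in naive 8226, with CD2 and KLRD1 at 0 reads in both resistant lines. The 8 monocyte and macrophage markers summed to 13.6 to 14.2 CPM in carfilzomib-resistant, 9.28 to 9.40 CPM in bortezomib-resistant and 49.1 to 54.5 CPM in naive 8226, where 1, 1 and 2 of them reached 1 CPM and FCGR3A was at 0 reads throughout. In 5TGM1 they summed to 379 to 428 CPM in bortezomib-resistant and 284 to 288 CPM in naive cells, with Marco at 0 reads in both. Only 3 of these 8 averaged 1 CPM or more in bortezomib-resistant and 2 in naive 5TGM1. The 6 erythroid and megakaryocyte markers summed to at most 0.0950 CPM in carfilzomib-resistant, 0.0584 CPM in bortezomib-resistant and 5.40 CPM in naive 8226, with HBB and PF4 at 0 reads in all 3, and to 17.8 to 19.5 CPM in bortezomib-resistant and 13.4 to 15.7 CPM in naive 5TGM1. This last sum was nearly all HBA1 in naive 8226 (4.03 ± 1.23 CPM). In 5TGM1 it was nearly all Itga2b, at 18.4 ± 0.943 CPM in bortezomib-resistant and 14.3 ± 1.21 CPM in naive cells. The part of the markers of other cell types in the levels of the members was not tested.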

How the data were processed

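Gene counts of 15 RNA-seq libraries were analysed, in 5 groups of 3 taken from the sample titles. The authors deposited raw read counts for each gene symbol, in the 4-column layout of STAR, a tool the submitters' processing notes name with no version. Those notes list mm10, GRCm38, hg19 and GRCh37 as builds but tie none to a file, and no source used here gives the annotation release. Column 4, which held nearly all stranded gene reads (1.43% to 2.12% lay on the other strand), was used. Reads mapped to several places, 15.3% to 16.3% in mouse and 8.95% to 10.9% in human libraries, were left out by the counting.

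Differences were tested with edgeR 4.0.16 in R 4.3.3, by the quasi-likelihood F test on counts after TMM scaling (factors 0.937 to 1.08) and filterByExpr, with Benjamini-Hochberg adjustment over the 13910 human or 11974 mouse genes tested. The 9 libraries of 8226 shared a fit. SEs were derived from the F statistic and can understate counting error where a group holds few reads. Ratios with 1 to 3 reads in a group have exact 95% counting intervals. Scripts were tested on simulated counts. No 2 libraries of a group agreed within sampling noise (chi-square per degree of freedom 3.84 to 24.4). The members and gene lists were chosen with earlier results of these data known. Genes were named by a fixed rule: all members, up to 4 called genes per direction and kind of list with the largest log2 difference (groups not overlapping, higher group at 1 CPM or more), and a set of key pathway genes. ZAP70, YES1, IFITM1, CD81 and other genes outside the rule in a comparison were named there after their values were seen. Some named genes are not reported here. Alternatives were DESeq2 1.42.0, DESeq2 size factors, library size alone, no filter, unstranded counts, only the 2 groups compared, the replicate number as a block, and each library left out in turn.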

Additional observations from a re-analysis of the deposited data

Results flagged for a closer look

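The change with bortezomib resistance was compared between the lines by a test of the difference itself, over 11852 symbols shared by both species when case is ignored, of which 64.9% were called. Values are the log2 change in 8226 minus that in 5TGM1. The 27 genes below are those reported of the named pathway genes, kinase relatives and B cell transcription factors that were tested in both lines and called. Many were named for large changes in these same comparisons, so their number is not a share to set beside 64.9%. The kinase relatives were FYN (-10.50), LCK (5.06) and YES1 (2.15), and the transcription factors ETS1 (4.64), POU2F2 (3.82), POU2AF1 (-2.28), IKZF3 (1.15) and SPI1 (-0.98). Of pathway genes, the change was lower in 8226 for HCLS1 (-10.66), PTPRC (-8.01), CD81 (-7.58), CD180 (-5.73), PIK3R5 (-5.42), INPP5D (-3.42), FCRLA (-2.60), PTPN6 (-2.38), FCGR2B (-2.10), VAV3 (-2.05), PLCG2 (-1.93), NFATC1 (-0.77) and BLNK (-0.43). It was higher in 8226 for RASGRP3 (9.08), LILRB4 (3.89), PIK3CD (3.25), DOK3 (0.86), PTPN22 (0.86) and VAV1 (0.23). PTPN22 rose in both lines, by 3.70 in 8226 and 2.87 in 5TGM1. Some of these genes changed in opposite directions in 8226 and 5TGM1. Examples are RASGRP3 (6.87 and -2.19), POU2F2 (3.10 and -0.70), PIK3CD (2.82 and -0.41), POU2AF1 (-1.11 and 1.20) and FCGR2B (-1.38 and 0.74). CD79B, a member, also went opposite ways in the lines, with a log2 difference of -5.00 in 8226 and 0.22 in 5TGM1 and no overlap between groups in either. That difference was not tested, since the gene was chosen for its levels, and the 8226 value rests on 1 read in the bortezomib-resistant libraries.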

How the results depend on the processing

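All 29 called differences of members kept their direction and their call under every alternative in which they were tested: DESeq2, other scalings, no filter, unstranded counts, fits of only the 2 groups compared, the replicate block and each library left out. CD79B in bortezomib-resistant against naive 8226 was tested in 15 alternatives, and the other called differences of 8226 in 16. The number of members called lower in carfilzomib-resistant against bortezomib-resistant 8226 was 0, and ran from 0 to 1 with a library left out, MS4A1 being called without bortezomib-resistant replicate 3. Scaling by library size alone moved the median log2 difference of all genes in bortezomib-resistant against naive 8226 to 0.16, against -0.03 with TMM, and the share of called genes that were higher to 58.7%, against 47.9%. VAV1, an exchange factor, was at -0.13 with TMM and 0.053 with library size alone in that comparison, since this scaling shifts all genes. Deviations from the group means correlated at -0.225 to 0.335 between same-numbered libraries and at -0.293 to 0.237 between differently numbered ones. With 3 libraries a group these values cannot settle whether the numbers pair the libraries. With the number as a block, Plcg2 in 5TGM1 lost its call (-0.11, adjusted p = 0.0663). With a library left out, the pathway genes called higher and lower ran from 28 to 29 and 36 to 39 in bortezomib-resistant against naive 8226, and from 9 to 12 and 30 to 35 in 5TGM1. Depth limits CD79B, FCER2 and MS4A1 in the resistant 8226 lines, whose levels rest on 10 or fewer reads a group, and LYN, SYK and CR2 in bortezomib-resistant 8226.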
